A study of Rattus norvegicus with 12 samples.

Results

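The genes described here are the semaphorins, plexins, ephrins, Eph receptors, Slits, Robo receptors, netrins and Unc5 receptors, the main families of guidance genes. They were chosen by name, as every gene whose single symbol in the array annotation begins with the name of a member of these families. This gave 53 of the 14217 genes measured, carried by 90 of the 20826 probe sets that have a single symbol. A probe set is a group of short probes read together as 1 transcript. Where a gene had several, the probe set with the highest mean signal stood for it. The name rule also takes in Unc5cl, which is named for its likeness to Unc5c.

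F111 is a fibroblast line from normal rats of the Fischer strain. NA16 cells were plated on agarose and kept in suspension for 16 h, and A16 cells were plated on plastic, where they adhered for the same 16 h. Both states were in the same serum-containing medium, and total RNA of each was hybridised to 3 Affymetrix rat expression arrays, those of biological replicate 1, biological replicate 2 and technical replicate 2. The study set out to describe gene expression in fibroblasts deprived of adhesion. A cell line is a single source, and the arrays read RNA of the whole culture. Fewer cells that carry a transcript and less of that transcript per cell therefore cannot be told apart. The paper reports that most of the suspended cells had lost viability by the time of collection. It describes the cells still alive as rich in apoptotic proteins and with fragmented DNA. The part of dying cells in the differences between the states was not tested. The sources used here do not say what set biological repeats apart, such as separate cultures, so the spread behind the p-values may be only technical.

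Semaphorins are secreted or membrane-bound ligands, and plexins are their receptors, often joined by neuropilins as co-receptors. Ephrins sit on cell surfaces and bind Eph receptor tyrosine kinases on the neighbouring cell, with signals passing both ways. Slits act through Robo receptors and netrins through Unc5 receptors and Dcc. The families are named for the steering of axons, but in fibroblasts and other cells that attach to a surface they also act on cell spreading, repulsion and contact, largely through integrins and the actin skeleton.

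The promoters of the strongly changed members are shown because these genes moved most between the states. Of the 5 members that changed at least 2-fold, 4 had a promoter in the RefSeq table used here (Epha2, Plxna3, Sema3c and Sema6a), and Sema3b did not. Each sequence is the 250 bases before the transcription start, 5′ to 3′ on the strand of the gene, in assembly GRCr8, and capitals mark matches to the motifs searched on both strands, which were ACGTG (the core of the hypoxia response element), GGAATG (a TEAD site), TGANTCA (an AP-1 site) and GGGCGG (a GC box). The Epha2 promoter lies at chr5:158888379-158888628 on the plus strand and holds a GGAATG match that begins 75 bases before the start and a GGGCGG match that begins 115 bases before it, both read from the other strand. The Plxna3 promoter lies at chrX:157266857-157267106 on the plus strand and holds a GGGCGG match that begins 78 bases before the start, also on the other strand. The Sema6a promoter, at chr18:42358541-42358790 on the minus strand, and the Sema3c promoter, at chr4:18699628-18699877 on the minus strand, hold 0 matches each. The Sema3c promoter has 35.2% G or C bases and 0 CG pairs, against 58.4% and 10 CG pairs in Epha2.
Epha2: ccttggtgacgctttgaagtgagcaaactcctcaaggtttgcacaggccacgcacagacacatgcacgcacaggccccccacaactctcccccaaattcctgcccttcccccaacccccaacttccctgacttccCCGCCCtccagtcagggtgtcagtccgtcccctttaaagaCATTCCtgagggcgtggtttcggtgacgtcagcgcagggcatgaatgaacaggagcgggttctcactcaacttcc
Plxna3: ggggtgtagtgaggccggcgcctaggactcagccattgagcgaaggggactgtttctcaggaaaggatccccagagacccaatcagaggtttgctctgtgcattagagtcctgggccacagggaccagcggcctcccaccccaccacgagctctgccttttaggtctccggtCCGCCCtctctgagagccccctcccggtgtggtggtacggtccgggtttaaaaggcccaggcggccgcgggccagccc
Sema6a: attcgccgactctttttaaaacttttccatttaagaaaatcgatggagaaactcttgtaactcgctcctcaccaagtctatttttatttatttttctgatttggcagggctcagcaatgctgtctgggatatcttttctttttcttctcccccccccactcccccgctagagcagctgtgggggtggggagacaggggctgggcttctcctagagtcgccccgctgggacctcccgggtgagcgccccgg
Sema3c: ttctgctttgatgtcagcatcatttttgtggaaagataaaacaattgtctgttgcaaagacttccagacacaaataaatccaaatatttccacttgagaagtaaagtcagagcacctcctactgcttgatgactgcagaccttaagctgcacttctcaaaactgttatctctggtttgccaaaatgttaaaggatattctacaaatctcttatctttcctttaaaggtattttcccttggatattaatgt

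A promoter was found for 39 of the 53 members, among 33469 promoters in all. The 33469 were not limited to genes measured on the arrays, and their G and C content was not matched to that of the members. The 2 sets are therefore unlike, and the differences in share were not tested. GGGCGG was present in 24 of the 39 (61.5%), against 30.5% of all promoters. ACGTG was present in 6 (15.4%), against 16.6% of all promoters, GGAATG in 3 (7.69%), against 12.1%, and TGANTCA in 1 (2.56%), against 6.34%. Within the set, GGGCGG was present in 4 of 8 promoters of members higher in NA16 and in 2 of 4 promoters of members lower in NA16. It was also present in 18 of the 27 promoters of members that were not called. A match is a string of letters and not a site shown to be bound.

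Between NA16 and A16, 9 of the 53 guidance genes were higher in NA16 cells, 6 were lower and 38 did not pass the test. A gene was called where its limma p, adjusted by Benjamini-Hochberg over all 14217 genes, was below 0.05. The share called was 28.3% of the guidance genes, while 38.9% of all genes were called (21.9% higher and 16.9% lower). Sema3b, Sema6a and Plxna3 were higher by at least 2-fold and Epha2 and Sema3c lower by at least 2-fold, and 13.9% of all genes were called at that size. The median change was 0.01 on the log2 scale in the guidance genes and 0.01 in all genes, and the median size of change without its sign was 0.14 in the guidance genes and 0.27 in all genes. The 3 arrays of NA16 and the 3 arrays of A16 did not overlap in 23 of the 53 guidance genes (43.4%), against 51.7% of all genes. At an unadjusted limma p below 0.05 the guidance genes numbered 17, the 15 called ones with Sema3d and Efnb1, and in the PLIER columns 14 of the 15 calls were kept and Epha3, Ephb1, Plxnc1 and Sema4f were added. By the methods' t-test on the same values, 11 guidance genes had an unadjusted p below 0.05, and after Benjamini-Hochberg adjustment 0 of them passed, as did 20 of all genes.

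Many guidance genes gave a dim signal. Only 15 of the 53 lay at or above the median signal of all genes, which was 8.77 on the log2 scale. In these 15 genes 9 were called (60%), against 56% of all genes in that upper part. In the other 38 guidance genes 6 were called (15.8%), against 21.7% of all genes below the median. Every deposited RMA value lay above 16, as if a constant had been added to the values, and fold changes of dim genes would then be too small.

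**Figure D1:**
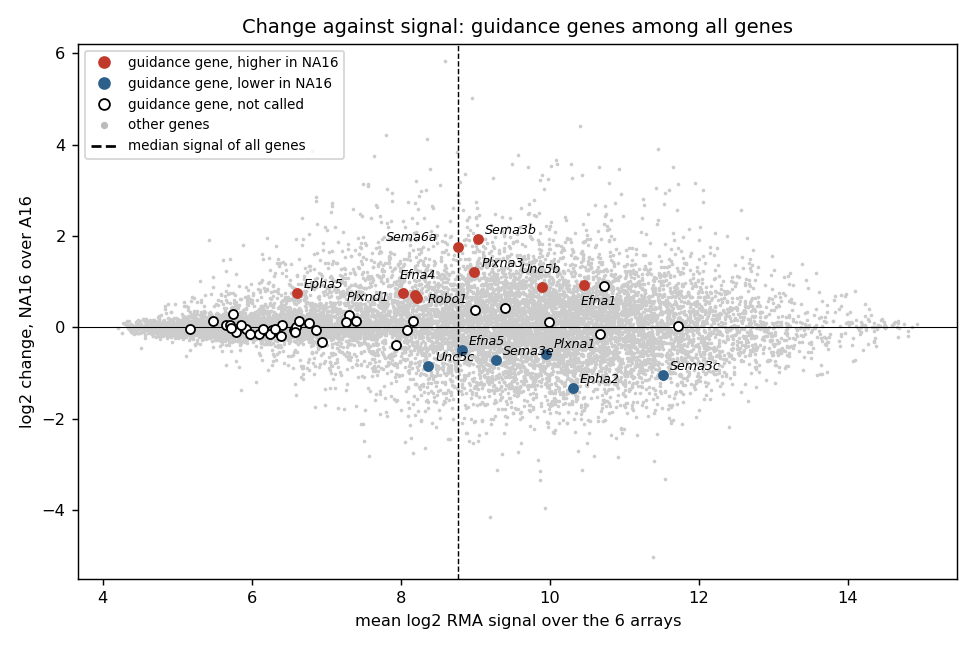
The log2 change of NA16 over A16 (vertical axis) is plotted against the mean log2 RMA signal over the 6 arrays (horizontal axis) for the 53 guidance genes and all other genes. Guidance genes that passed the test are filled and named, and most of the open circles, the 38 that were not called, lie left of the dashed line at the median signal of 8.77.

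The arrays of a state resembled each other more than those of the other state, with Pearson correlations over all genes from 0.989 to 0.997 within NA16, from 0.993 to 0.998 within A16 and from 0.946 to 0.953 between them. The labels point to technical replicate 2 as a repeat of biological replicate 1, and it was averaged with it, giving 2 replicates per state. In A16 it was closest to biological replicate 1 (0.998), but in NA16 it was closer to biological replicate 2 (0.997) than to biological replicate 1 (0.992). When it was averaged with biological replicate 2 instead, Unc5b lost its call and Plxna2 gained one. Of 14 fibroblast markers 6 were higher in NA16 (Pdgfrb, Lum, Pdgfra, Dcn, P4hb and Thy1) and 0 lower. That is 42.9% called, against 38.9% of all genes (21.9% higher and 16.9% lower), and changes in the list ran from -0.57 to 1.40. Their mean level per array was from 11.48 to 11.79 in NA16 and from 11.27 to 11.48 in A16 on the log2 scale. Of 12 neuronal markers only Map2 was called (higher by 1.16, 8.33% of the list), and 10 of the 12 lay below the median signal. Their mean level per array was from 6.56 to 6.60 in NA16 and from 6.43 to 6.56 in A16. Of 8 glial markers S100b was called (higher), and of 8 endothelial markers Pecam1 (higher) and Egfl7 (lower). Of 9 epithelial markers Krt8 and Epcam were higher and Sfn lower, and of 9 macrophage markers Cd68 and Lyz2 were higher. The shares called were 12.5%, 25%, 33.3% and 22.2%, against 38.9% of all genes. The median changes of these lists were -0.07, 0.00, -0.02 and -0.01, and the part of these markers in the results was not tested. The beta-actin control probes fell by 1.21 at the 5′ end, 1.02 in the middle and 0.72 at the 3′ end, while those of GAPDH were higher in NA16 by 0.19, 0.28 and 0.24.

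All values of single arrays below are log2 RMA signals, given for biological replicate 1, biological replicate 2 and technical replicate 2 of a state, and changes are log2 differences of NA16 over A16 with their standard error (SE). Levels of different genes are not compared, since probe sets differ in brightness. The counts of calls in each family below stand beside 38.9% of all genes called (21.9% higher and 16.9% lower), and the families are small.

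Among the class 3 semaphorins, which are secreted, 1 of 7 was higher in NA16 and 2 were lower (42.9% called, against 38.9% of all genes). Sema3b, known in mammals as a ligand that signals through neuropilins and is described as a tumour suppressor, gave 9.59, 10.26 and 10.20 on the NA16 arrays, against 7.71, 8.44 and 8.01 on the A16 arrays. Every NA16 array lay above every A16 array by more than 1 log2 unit. The change was 1.93 ± 0.21 (SE), or 3.80-fold (limma adjusted p = 0.00060), which placed Sema3b at rank 300 of all genes by size of change. Sema3c, a ligand that binds neuropilins and acts in the development of the heart outflow tract in mouse, gave 10.92, 11.07 and 10.93 in NA16, against 12.02, 12.00 and 12.17 in A16. The arrays within each state were close together and the states did not overlap. Sema3c fell by 1.05 ± 0.12 (SE; limma adjusted p = 0.00063). Sema3e, which in mouse binds plexin D1 directly without a neuropilin, gave 9.14, 8.71 and 8.84 in NA16, against 9.71, 9.31 and 9.93 in A16. The lowest A16 array lay just above the highest NA16 array, and Sema3e fell by 0.72 ± 0.19 (SE; limma adjusted p = 0.023). Without A16 replicate 1 the Sema3e call was lost (change -0.46, limma adjusted p = 0.099).

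Sema3f and Sema3d had changes above 0 that did not pass. Sema3f, which in mouse acts through neuropilin-2 and plexin A3, gave 10.20, 11.92 and 11.32 in NA16, against 9.85, 10.87 and 10.15 in A16. The arrays of each state spread over more than 1 log2 unit, with biological replicate 2 the highest in both, and the states overlapped. The change of 0.90 ± 0.41 (SE) had a limma adjusted p of 0.14. Sema3f passed when replicates of the same number were treated as a block, although they share only a number. Without NA16 replicate 1 the change was 1.48, while it was 0.33 without NA16 replicate 2 and 0.47 without A16 replicate 1. Sema3d gave 9.52, 8.995 and 9.08 in NA16, against 8.85, 8.76 and 8.74 in A16, with all NA16 arrays above all A16 arrays and a change of 0.37 ± 0.14 (SE; limma adjusted p = 0.076). Sema3a and Sema3g, both dim, were not called.

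The membrane-bound semaphorins were mostly not called. All 5 class 4 genes (Sema4a, Sema4b, Sema4d, Sema4f and Sema4g) failed the test with changes from -0.15 to 0.28, and so did Sema5a. Of the 4 class 6 genes only Sema6a was called. Sema6a, which is a transmembrane ligand of plexin A2 and plexin A4 in mouse, gave 9.41, 9.71 and 9.85 in NA16, against 7.73, 7.98 and 7.94 in A16. The lowest NA16 array was more than 1 log2 unit above the highest A16 array. Its change was 1.76 ± 0.12 (SE), or 3.39-fold (limma adjusted p = 0.00010). Sema6a had 5 probe sets, all with changes above 0, from 0.37 to 1.76, and 2 of them passed when every probe set was tested on its own. The mean of the 5 gave a change of 0.81, so the size of the rise depends on the probe set read. Sema6b, Sema6c and Sema6d were not called.

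**Figure D2:**
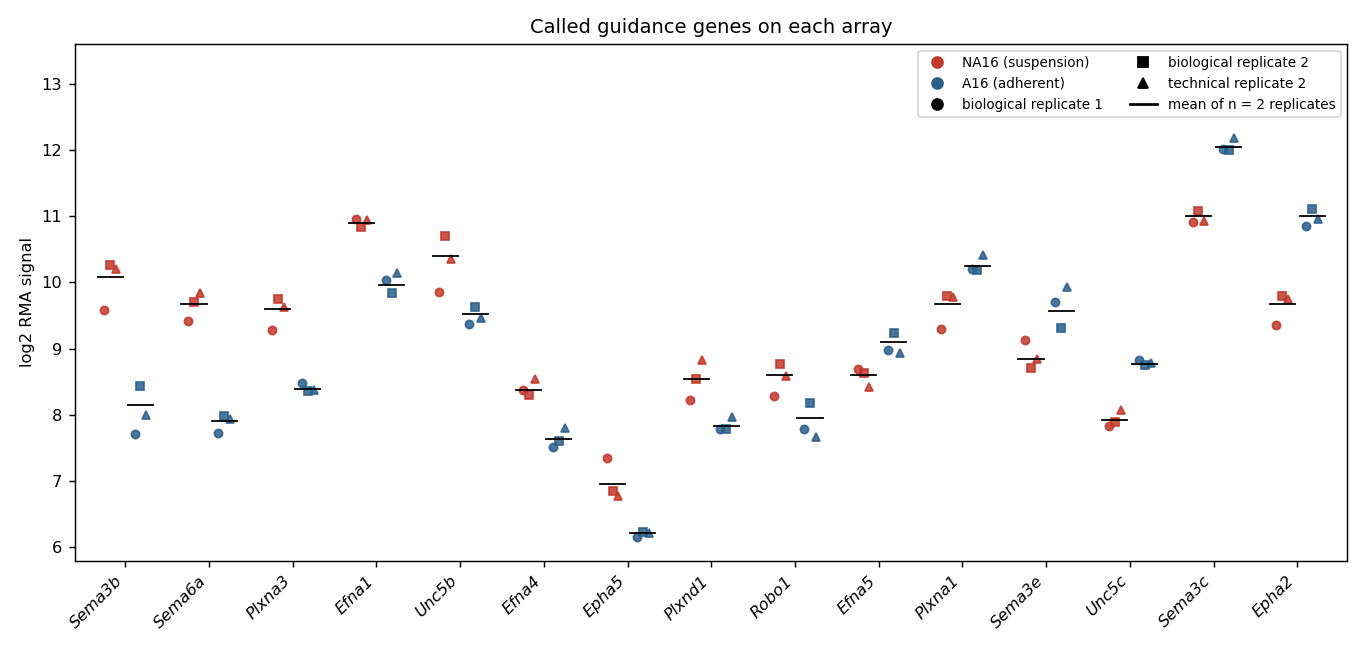
Log2 RMA signal (vertical axis) of the 15 called guidance genes on the 6 arrays, NA16 arrays left of A16 arrays for each gene, with bars at the mean of 2 replicates. The 9 genes on the left are higher in NA16 and the 6 on the right lower. In none of the 15 do the arrays of the states overlap, but these genes were picked by the test on the same arrays. Of all genes, 51.7% do not overlap.

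In the plexins, the semaphorin receptors, 2 of 8 were higher in NA16 and 1 was lower (37.5% called, against 38.9% of all genes). Plxna3 gave 9.28, 9.76 and 9.63 in NA16, against 8.49, 8.37 and 8.37 in A16. The A16 arrays lay close together, all below the NA16 arrays. The change was 1.21 ± 0.14 (SE), or 2.31-fold (limma adjusted p = 0.00063), and a second Plxna3 probe set rose by 1.75. Plxnd1, the receptor of Sema3e and a receptor of endothelial cells in development, gave 8.22, 8.55 and 8.83 in NA16, against 7.78, 7.79 and 7.97 in A16. The states did not overlap, and the change was 0.70 ± 0.11 (SE; limma adjusted p = 0.0025). Sema3e was lower and its receptor Plxnd1 higher in NA16 cells. Plxna1, a receptor of class 3 semaphorins together with neuropilin-1, gave 9.30, 9.80 and 9.79 in NA16, against 10.20, 10.19 and 10.42 in A16, and all NA16 arrays lay below all A16 arrays. Plxna1 fell by 0.58 ± 0.13 (SE; limma adjusted p = 0.012). Its call was lost without A16 replicate 1 (change -0.52) and without NA16 replicate 1 (change -0.45). The mean of its 3 probe sets also missed the threshold (change -0.29, limma adjusted p = 0.10), its other 2 probe sets being dim.

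Plxna2, a Sema6a receptor in mouse, gave 7.75, 7.64 and 7.74 in NA16, against 8.32, 7.80 and 8.37 in A16. The arrays did not overlap, but the change of -0.38 ± 0.19 (SE) had a limma adjusted p of 0.17. A dimmer Plxna2 probe set passed at -0.41 when tested on its own. Without A16 replicate 2 the change was -0.65, while without A16 replicate 1 it was -0.10. The brightest Plxna2 probe set passed with technical replicate 2 averaged with biological replicate 2 (change -0.48, limma adjusted p = 0.030). Plxnb2 gave 11.28, 11.99 and 11.80 in NA16, against 11.75, 11.68 and 11.83 in A16, with the states overlapping and a change of 0.03 ± 0.17 (SE; 95% interval -0.36 to 0.43). Plxnb1, Plxnc1 and Plxna4 were not called, although a second Plxnb1 probe set rose by 0.51 when tested on its own, against -0.05 for the brightest. The plexin B and semaphorin 4 genes, a ligand and receptor pairing known in mammals, held 0 calls among 7 genes by their brightest probe sets.

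All 3 ephrin-A genes, ligands held on the membrane by a lipid anchor, were called, with 2 higher and 1 lower. Of all genes 38.9% were called, and 3 genes are too few to set a family apart. Efna1, which binds EphA2, gave 10.96, 10.84 and 10.94 in NA16, against 10.03, 9.85 and 10.15 in A16. The arrays of NA16 lay close together and above all those of A16. The change was 0.93 ± 0.13 (SE), or 1.90-fold (limma adjusted p = 0.0015), and its second probe set rose by 0.68. Efna4 gave 8.38, 8.31 and 8.54 in NA16, against 7.52, 7.61 and 7.80 in A16, without overlap, with a change of 0.75 ± 0.12 (SE; limma adjusted p = 0.0025). Efna5 gave 8.70, 8.64 and 8.43 in NA16, against 8.98, 9.24 and 8.93 in A16. The states did not overlap, though the gap between them was narrow, and Efna5 fell by 0.50 ± 0.14 (SE; limma adjusted p = 0.025). Its call was lost without A16 replicate 2 (change -0.35) and without NA16 replicate 1 (change -0.46). The Efna5 call was also lost in the PLIER columns (limma adjusted p = 0.079) and with the mean of its probe sets (limma adjusted p = 0.10). The 2 ephrin-B genes, which cross the membrane, were not called. Efnb1 gave 6.54, 6.92 and 6.89 in NA16, against 7.03, 7.19 and 7.10 in A16, with a change of -0.31 ± 0.13 (SE; limma adjusted p = 0.097).

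Of the 8 EphA receptors 1 was higher and 1 lower in NA16 (25% called, against 38.9% of all genes). Epha2, the ephrin-A1 receptor found in many epithelial and tumour cells, gave 9.36, 9.79 and 9.75 in NA16, against 10.85, 11.11 and 10.96 in A16. Every NA16 array lay more than 1 log2 unit below every A16 array. Epha2 fell by 1.33 ± 0.14 (SE), a 2.52-fold difference (limma adjusted p = 0.00045) and the largest fall among the guidance genes. The receptor Epha2 was lower in the cells where its ligand Efna1 was higher. Epha5 gave 7.36, 6.85 and 6.78 in NA16, against 6.16, 6.24 and 6.22 in A16, a dim signal in both states without overlap, with a change of 0.74 ± 0.12 (SE; limma adjusted p = 0.0032). The other 6 EphA receptors, all dim, were not called.

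None of the 4 EphB receptors was called. Ephb3 gave 10.08, 9.28 and 9.55 in NA16, against 9.24, 8.98 and 9.28 in A16, which overlapped narrowly, with a change of 0.43 ± 0.20 (SE; limma adjusted p = 0.14). Without NA16 replicate 2 the change was 0.69, while it was 0.16 without NA16 replicate 1 and 0.28 without A16 replicate 2. Ephb4 gave 9.75, 10.39 and 10.10 in NA16, against 9.51, 10.46 and 9.71 in A16. In both states biological replicate 2 was the highest array, and the change of 0.12 ± 0.29 (SE) had a 95% interval from -0.56 to 0.81. Ephb1 and Ephb6 were dim and not called.

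**Figure D3:**
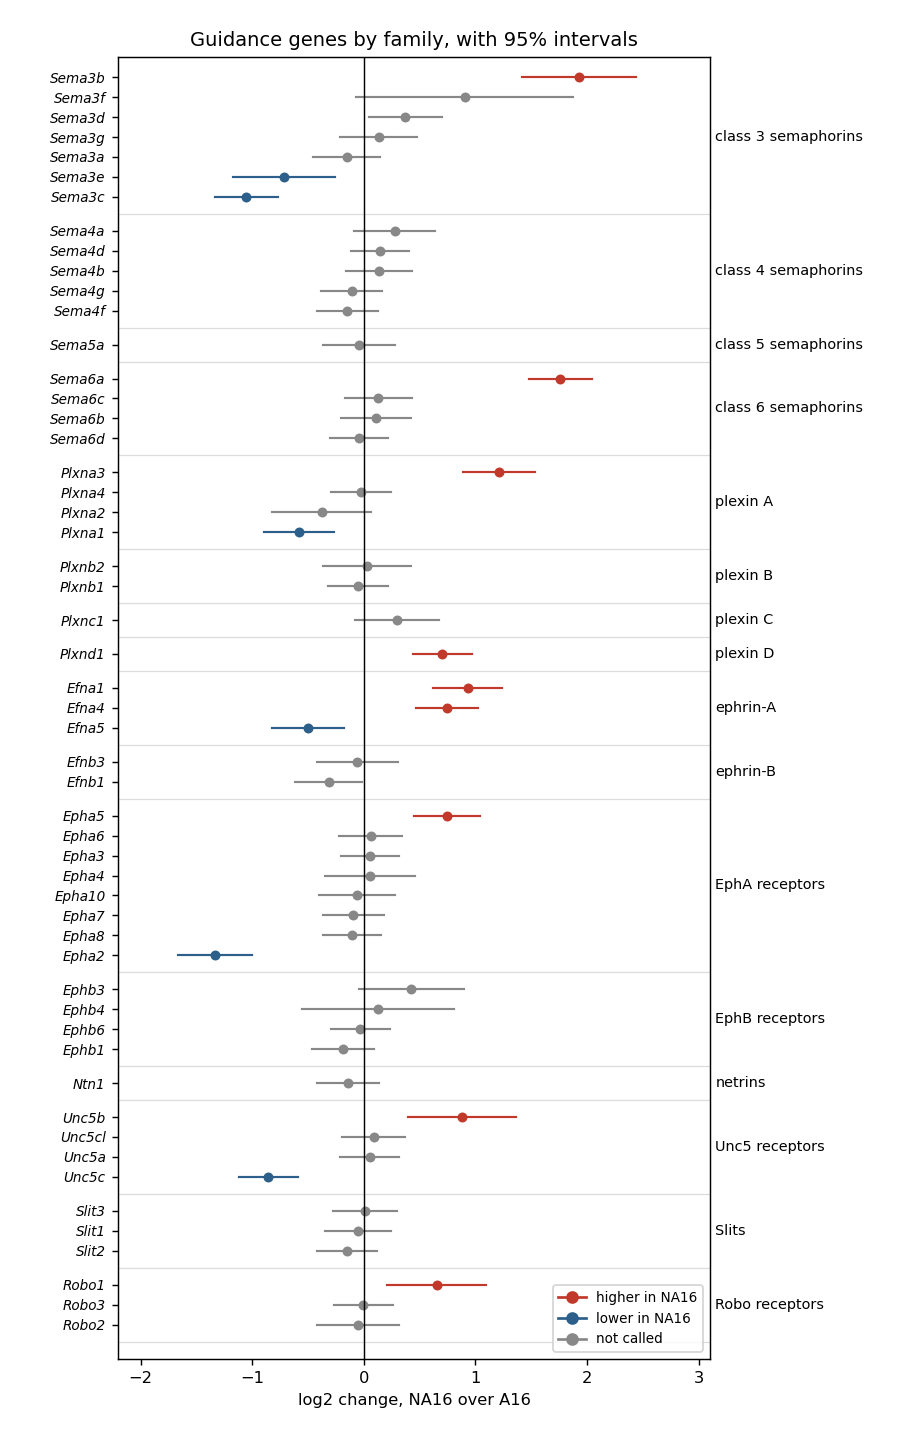
Log2 change of NA16 over A16 (horizontal axis) for the 53 guidance genes grouped by family, with points for the estimate and bars for the 95% interval of the limma fit, not adjusted for the number of genes. Coloured points passed the test, 9 to the right of 0 and 6 to the left, and changes in both directions stand within class 3 semaphorins, plexin A, ephrin-A, EphA and Unc5 receptors.

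Unc5 receptors bind netrins and are also known as receptors linked to cell death in the absence of ligand. Of the 4 genes of this name, which include Unc5cl by its name only, 1 was higher and 1 lower (50% called, against 38.9% of all genes). Unc5b gave 9.86, 10.70 and 10.36 in NA16, against 9.37, 9.64 and 9.46 in A16. The NA16 arrays spread widely but stayed above all A16 arrays, and the change was 0.88 ± 0.20 (SE), or 1.84-fold (limma adjusted p = 0.013). Its call was lost without A16 replicate 1 (limma adjusted p = 0.078), with technical replicate 2 averaged with biological replicate 2 (limma adjusted p = 0.054) and with the mean of its probe sets (change 0.72, limma adjusted p = 0.085). Unc5c gave 7.83, 7.89 and 8.08 in NA16, against 8.83, 8.75 and 8.78 in A16, without overlap and with the A16 arrays close together. Unc5c fell by 0.85 ± 0.11 (SE; limma adjusted p = 0.0011), and its second probe set, at -0.20, did not pass. Unc5a, Unc5cl and the only netrin measured, Ntn1, were dim and not called.

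Among the Robo receptors Robo1 was the only one of 3 called. Robo1 gave 8.29, 8.77 and 8.58 in NA16, against 7.79, 8.17 and 7.66 in A16, with the highest A16 array just below the lowest NA16 array. The change was 0.65 ± 0.19 (SE), or 1.57-fold (limma adjusted p = 0.030). Its call was lost without A16 replicate 1 (change 0.43) and without NA16 replicate 2 (change 0.48). Of its 3 Slit ligands none was called. Slit2 gave 10.72, 10.54 and 10.57 in NA16, against 10.74, 10.79 and 10.66 in A16, with overlapping arrays and a change of -0.15 ± 0.11 (SE; 95% interval -0.42 to 0.12).

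Ligands and receptors held calls in both directions. Of the 26 ligands 4 were higher and 3 lower (26.9% called), against 38.9% of all genes. Of the 27 receptors, with Unc5cl counted by its name, 5 were higher and 3 lower (29.6% called). The families with 3 or more genes and no call were the class 4 semaphorins, the EphB receptors and the Slits.

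The reading rests in part on which probe set stands for a gene, since 22 of the 53 members had more than 1. Only Efna1, Plxna3 and Sema6a had more than 1 called probe set, and in each of them the called ones moved the same way. The other genes could not disagree by this rule, and in Plxnb1 the brightest probe set gave -0.05 and another 0.51. Plxna3 and Efna1 were called in both of their probe sets, while the second probe sets of Unc5b, Unc5c and Efna5 moved the same way as the brightest but did not pass.

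**Figure D4:**
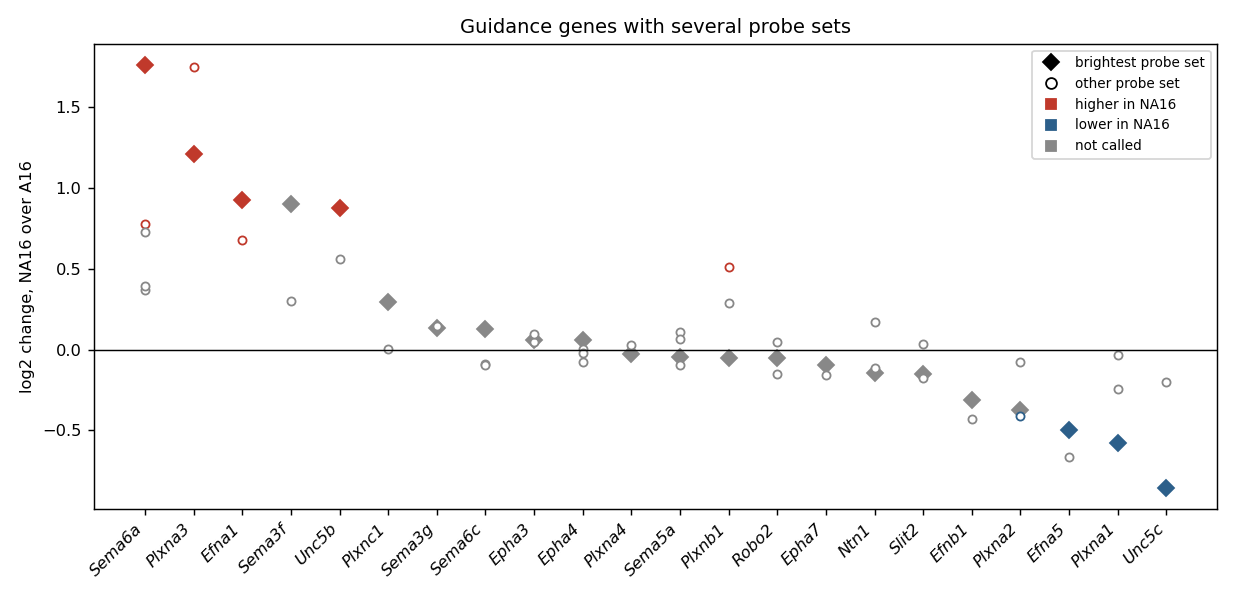
Log2 change of NA16 over A16 (vertical axis) for each probe set of the 22 guidance genes with several, with diamonds for the brightest probe set of a gene and circles for the others, coloured by call. The 5 Sema6a probe sets span 0.37 to 1.76, and a second Plxnb1 probe set passed although the brightest, at -0.05, did not.

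The genes that work with these ligands and receptors were read from 5 lists holding 145 genes, of which 133 were measured, and 4 of the lists are described one by one. In NA16 18 of them were higher and 28 lower (34.6% called), against 38.9% of all genes. Of the 10 measured co-receptors and other semaphorin receptors 4 were higher and 3 lower (70% called). The neuropilins differed in direction, with Nrp1 higher by 0.77 ± 0.11 (SE; limma adjusted p = 0.0017) and Nrp2 lower, at -0.96 ± 0.11 (SE; limma adjusted p = 0.00069). Nrp1 averaged 9.41 ± 0.05 in NA16 and 8.63 ± 0.03 in A16 (SD, n = 2 each), and Nrp2 averaged 9.43 ± 0.0038 in NA16 and 10.39 ± 0.06 in A16 (SD, n = 2 each). The NA16 arrays of Nrp2 gave 9.56, 9.44 and 9.31, so its small SD follows from averaging technical replicate 2 with biological replicate 1. Met, the hepatocyte growth factor receptor that partners plexin B in mammals, fell by 1.31, and Nrcam, an adhesion molecule that joins semaphorin receptor complexes, rose by 0.70. Cntn2 and Itga1 were also higher and Itgb1, the integrin beta 1 chain, fell by 0.56.

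Of 19 other guidance ligands and receptors 1 was higher and 3 were lower (21.1% called, against 38.9% of all genes). Flrt2 and Flrt3, adhesion proteins that bind Unc5 receptors in mouse, fell by 2.12 ± 0.12 (SE; limma adjusted p = 6.8e-05) and by 1.11 ± 0.11 (SE; limma adjusted p = 0.00037). Adam10, a protease that cuts ephrins, fell by 0.72, and Draxin, a netrin antagonist, rose by 0.72.

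Of 37 kinases and adaptors of guidance signalling 2 were higher and 10 lower (32.4% called), against 38.9% of all genes (21.9% higher and 16.9% lower). Pak1, a kinase that acts on the actin skeleton, fell by 1.74 ± 0.12 (SE; limma adjusted p = 0.00011), Gipc1, an adaptor that binds neuropilin-1, by 1.45 and Abl2 by 1.18, and Fyn, a kinase used by plexin A receptors, rose by 1.19. Of 29 effectors on actin and microtubules 3 were higher and 5 lower (27.6% called). Wasf1, an activator of actin branching, fell by 1.25, Pfn1, the actin-binding profilin, by 1.01, Myl9, a myosin light chain, by 0.85 and Evl, an actin polymerisation factor, by 0.64. The median change was 0.00 in the co-receptors, 0.03 in the other guidance genes, -0.12 in the kinases and adaptors and -0.09 in the effectors, against 0.01 in all genes.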

How the data were processed

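Labelled RNA of NA16 and A16 cells was read on 6 arrays, each deposited in an RMA and a PLIER column, so 12 columns. The authors scanned the arrays with Affymetrix software and normalised them in Avadis, and the deposited values are intensities on a linear scale, of which log2 was taken. RMA corrects background, equalises the arrays and summarises each probe set, and PLIER columns were an alternative. The lowest RMA intensity per array lay between 16.1 and 17.6. Of 31042 probe sets that are not controls, 20826 had a single symbol, 436 several and 9780 none, and a match to the RefSeq gene table (20758 matched) changed 0 symbols. The median RMA intensity per array was 152.5 to 157.9, and the number of arrays limits the precision.

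The comparison used limma 3.58.1 (lmFit, then eBayes) under R 4.3.3 on 2 replicates per state, two-sided, over 14217 genes, with 2 residual and 4.78 prior degrees of freedom, and the fit was tested on simulated data. The alternatives were the PLIER columns (also with 16 added), 16 subtracted from RMA, other treatments of technical replicate 2, the mean of probe sets, each probe set on its own, bright genes only, arrays centred on their medians, a robust variance trend, the methods' t-test, a replicate block and each replicate left out. Every member is accounted for: called members are given on each array, and those not called by counts and ranges, with values where a gene had an unadjusted p below 0.1 or the highest signal of its family at or above the median. From each partner list the 4 largest called changes were named, and Cntn2, Itga1 and Itgb1 beside them were named after their values were seen. The members and lists were chosen with earlier results of these data known, and no set test was run. The result of 1 partner list is not reported here on its own.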

Additional observations from a re-analysis of the deposited data

How the results depend on the processing

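Of the 15 calls among the guidance genes, 10 (Efna1, Efna4, Epha2, Epha5, Plxna3, Plxnd1, Sema3b, Sema3c, Sema6a and Unc5c) held in every alternative they were tested in except the methods' t-test. Under that test 13 genes in all were higher and 7 lower after adjustment, with 0 guidance genes higher, 0 lower, 0 changed at least 2-fold, 0 families and 0 partner genes in either direction, and the guidance genes at an unadjusted p below 0.05 numbered 11, of which 5 changed at least 2-fold. Without technical replicate 2, 11 of the 15 calls were kept (Efna5, Robo1, Sema3e and Unc5b lost) and 11 partner genes were higher. Among genes at or above the median signal 4 guidance genes were higher, calls fell in 5 families and 9 partner genes were higher, since fewer genes were tested. With each array centred on its median, the median change over all genes was -0.07 and 49.4% of calls were higher, against 56.4%.

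Leaving out 1 replicate at a time gave 2439 to 2631 genes higher and 2010 to 2078 lower in all, 7 to 10 guidance genes higher and 4 to 6 lower, 5 to 6 changed at least 2-fold, 7 to 8 families with a call, and 12 to 14 partner genes higher and 23 to 24 lower. The lone replicate of a state then gave no spread of its own. Without an A16 replicate the spread came from the NA16 replicates, moderated over all genes. Without an NA16 replicate the fit gave all genes the same spread, so the p-values followed the size of the change alone. The p-values of these fits, and the calls lost or gained in them, do not measure the spread within the state that held a lone replicate. Among the guidance genes not called, the sign of the Plxnb2 change turned to -0.061 with every array as its own replicate, -0.16 with technical replicate 2 averaged with biological replicate 2, -0.079 without technical replicate 2, -0.050 with arrays centred, and within -0.19 to 0.26 when replicates were left out. That of Ephb4 lay within -0.30 to 0.55 when replicates were left out. The cause was not tested. The 2 replicate numbers are shared between the states, and same-numbered replicates deviated together (correlation 0.56 over all genes), but with 2 pairs they share only a number. The replicate block kept all 15 calls, added 6 and gave 28 partner genes higher. Among the added calls were Sema3d, Sema3f and Ephb3 (higher) and Plxna2 and Efnb1 (lower).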
